A study of Mus musculus with 2 samples.

Results

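A group of 10 genes of the killing machinery of lymphocytes, out of 20299 genes in the deposited table, was followed through the immune cells of the inflamed mouse kidney. They were taken by name, for their function. They comprise the granzymes *Gzma*, *Gzmb*, *Gzmc*, *Gzmk*, and *Gzmm*, the pore-forming protein perforin (*Prf1*), the granule membrane protein *Nkg7*, the death ligands *Fasl* and *Tnfsf10*, and the granzyme B inhibitor *Serpinb9*. All 10 were found in the table. The study compared mice with and without *Vsir*, the gene of the immune checkpoint VISTA, in nephrotoxic serum nephritis (NTN), in which serum against the glomerulus injures the kidney and leukocytes then enter it. Both groups were C57BL/6 mice aged 8 weeks that carried the same disease, so there was no library of healthy kidney. Disease was induced alike in both. Sheep IgG (200 μg, with complete Freund's adjuvant) served as the priming antigen in the peritoneum, and nephrotoxic serum raised in sheep entered through a vein 4 days after it. The labels put the serum at 2 μL per g of body weight, and the methods give another dose. One library came from WT mice and 1 from Vsir-/- mice, in which the gene is deleted from the germline and so in every cell type. The Vsir-/- line was raised from frozen sperm of a repository, and the mice were male. The number of mice behind each library is not stated. The labels describe the WT library as sorted CD45+ cells and the Vsir-/- library as kidney cells of every kind, whereas the methods describe a CD45+ sort, so the genotype and the preparation cannot be told apart.

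Cytotoxic lymphocytes kill through granules or through death ligands. In the granule route, secretory granules fuse with the membrane at the contact with the target, perforin opens its membrane, and granzymes enter and cleave proteins of the target. In the other, Fas ligand or TRAIL (*Tnfsf10*) engages death receptors of the target and activates caspases. NK cells store granzymes and perforin before they meet a target, whereas naive T cells must first be activated, and effector CD8+ T cells are their main T cell source. *Nkg7* helps the granules to be released, and *Serpinb9* inhibits granzyme B that leaks into the cytosol of the killer cell itself.

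The letters before the start sites of *Gzma*, *Gzmb*, and *Prf1* are shown because these 3 genes were at least 2-fold lower in EM-like (effector memory–like) CD8+ T cells of Vsir-/- mice. Each sequence is the 250 bases before the start in RefSeq (GRCm38.p6), written 5′ to 3′ on the gene's strand. Capitals mark the RUNX core TGTGGT or its reverse complement ACCACA, the letters bound by RUNX factors such as RUNX3.
*Gzma*, chr13:113100982-113101231, minus strand: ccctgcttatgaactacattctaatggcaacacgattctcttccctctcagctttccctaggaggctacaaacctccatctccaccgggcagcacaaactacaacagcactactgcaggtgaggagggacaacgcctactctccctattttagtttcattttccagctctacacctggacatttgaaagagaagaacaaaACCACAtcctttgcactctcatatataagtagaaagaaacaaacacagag
*Gzmb*, chr14:56262335-56262584, minus strand: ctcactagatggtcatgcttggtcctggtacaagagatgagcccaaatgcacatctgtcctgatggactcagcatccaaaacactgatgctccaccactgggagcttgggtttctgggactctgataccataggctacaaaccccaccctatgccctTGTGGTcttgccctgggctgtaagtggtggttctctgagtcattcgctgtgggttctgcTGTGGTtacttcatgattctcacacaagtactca
*Prf1*, chr10:61297586-61297835, plus strand: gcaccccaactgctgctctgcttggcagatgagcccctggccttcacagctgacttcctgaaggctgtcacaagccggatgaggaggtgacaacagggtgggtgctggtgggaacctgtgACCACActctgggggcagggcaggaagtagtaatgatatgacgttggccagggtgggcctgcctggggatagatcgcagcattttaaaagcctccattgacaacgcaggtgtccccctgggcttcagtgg
*Gzma* and *Prf1* held the core once and *Gzmb* held it 2 times. Over the first RefSeq entry of each of the 10 genes, 6 windows held the RUNX core on either strand and 2, those of *Gzmk* and *Nkg7*, held the T-box letters GGTGTGA or TCACACC. The 6 were *Gzma*, *Gzmb*, *Gzmc*, *Gzmm*, *Prf1*, and *Nkg7*, and 7 of the 10 windows held either. The 3 windows printed hold no T-box letters. Of 32851 windows of the same length, 14.0% held the RUNX core and 3.33% the T-box letters. These are matches of letters, and binding was not measured. The labels name the mm9 build for the deposited counts, so these positions are those of the reference and not of the count table.

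The WT library held 5470 cells with 32799550 unique molecular identifiers (UMIs) and the Vsir-/- library 1844 cells with 18601189 UMIs. *Vsir* itself had 4278 and 8 UMIs. Levels are given as CPM, the UMIs of a gene per 1000000 UMIs of the same cells, with exact Poisson intervals at the 95% level. Each genotype had 1 library and cells are not replicates, so no test between genotypes was possible, and all intervals cover counting error only. Ratios are log2 of the Vsir-/- level over the WT level, with 0.5 UMIs added to each sum, and a gene was counted as higher or lower from a 2-fold difference on, provided that it had at least 20 UMIs in the cluster over both libraries. Shares of cells with a UMI are given after each cell was thinned to 1000 UMIs, which left out 167 WT and 78 Vsir-/- cells. The 2 libraries shared 5 cell barcodes, and 1 of them fell in the same cluster in both. The 16 clusters carry the authors' names and were made from the expression of the same cells, so levels across clusters are a description.

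NK cells held most of the *Gzma*, *Prf1*, and *Gzmb* transcripts. In WT mice, *Gzma* reached 15587 CPM (15461–15714) among NK, 12179 CPM (11942–12419.7) among EM-like CD8+ T, 7058 CPM (6818–7305) among NKT, and 6331 CPM (6222–6442) among proliferating cells. The intervals of these 4 neighbors in the order did not overlap, and the NKT cluster was mixed, with a B cell marker in 84 of its 94 cells. Far below, plasmacytoid dendritic cells had 771 CPM (669–884), M2-like R2 macrophages 411 CPM (393–431), and EM-like CD4+ T cells 299 CPM (279–320.3). Non–EM-like CD8+ and CD4+ T cells had 40.7 and 31.2 CPM. Of all *Gzma* UMIs, NK cells held 65.9% in WT mice and 69.0% in Vsir-/- mice. For *Prf1* these shares were 76.1% and 79.5%, and for *Gzmb* 63.7% and 61.5%. *Gzmb* did not separate NK from EM-like CD8+ T cells in WT mice, with 1615 CPM (1574–1656) and 1645 CPM (1558–1735). *Prf1* separated the same 2 clusters, with 1777 CPM (1735–1820.2) and 419 CPM (376–466). For *Nkg7* NK cells held 48.0% and 29.5%, and EM-like CD4+ T cells 12.8% and 35.8%, the larger share in Vsir-/- mice. Its WT level was 4363 CPM in NK cells, 3871 for EM-like CD8+, 1559 in EM-like CD4+, 732 in non–EM-like CD8+, and 32.1 in non–EM-like CD4+ T cells.

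**Figure D1:**
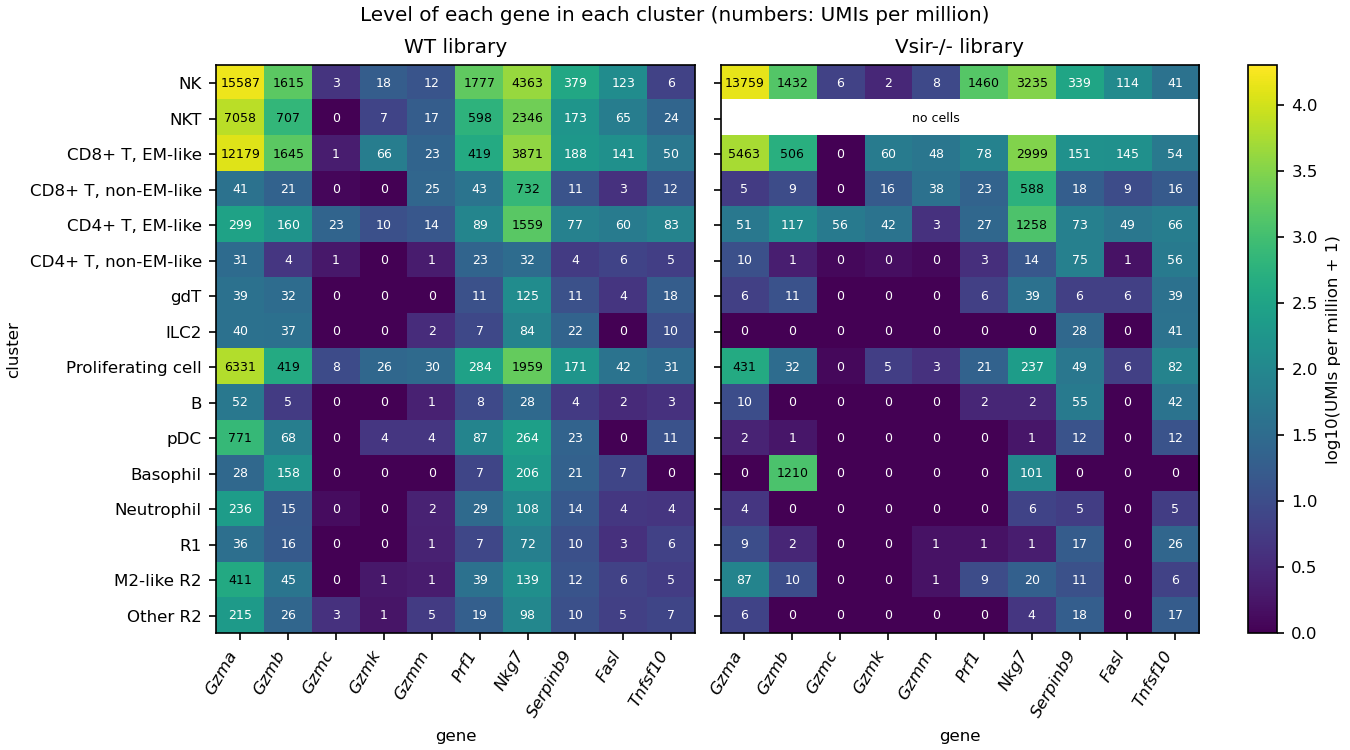
Level of each of the 10 genes (columns) in each of the 16 clusters (rows) of the WT library (left) and the Vsir-/- library (right), as color on a scale of log10(CPM + 1) with the CPM printed in each field. *Gzma* stands at 15587 CPM in WT and 13759 CPM in Vsir-/- NK cells, and the Vsir-/- library has no NKT cells.

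In NK cells, the granule genes of Vsir-/- mice lay close to those of WT mice. *Gzma* had 58586 UMIs in 594 WT cells and 6974 UMIs in 67 Vsir-/- cells, or 15587 CPM (15461–15714) and 13759 CPM (13438–14085). The log2 ratio was −0.18 (interval −0.22 to −0.14). The median cell held 88 and 80 *Gzma* UMIs, with quartiles of 50 and 131 in WT mice and 51.5 and 124 in Vsir-/- mice, so the middle ranges of the cells overlapped almost wholly. *Gzmb* had 1615 and 1432 CPM, a log2 ratio of −0.17 (interval −0.29 to −0.06). One Vsir-/- NK cell held 149 of the 726 *Gzmb* UMIs, and without the richest cell of each library the log2 ratio was −0.43. *Prf1* had 1777 and 1459.9 CPM (log2 ratio −0.28) and *Nkg7* 4363 and 3235 CPM (log2 ratio −0.43). For these 4 genes the interval of the ratio lay below 0, and none was 2-fold lower. *Serpinb9*, the brake on granzyme B, had 379 and 339 CPM with an interval that included 0, −0.16 (interval −0.40 to 0.07).

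Of the 9 genes that passed the minimum in NK cells, 1 was at least 2-fold higher in Vsir-/- mice (*Tnfsf10*) and 1 at least 2-fold lower (*Gzmk*). Over all 8963 genes of the cluster that passed, 9.86% were higher and 7.01% lower by this measure, so both counts lie near the background. The median log2 ratio of the 9 genes was −0.18, against 0.07 over all genes. The share of NK cells with a *Gzma* UMI was 97.6% (96.0–98.7%) in WT and 98.5% (92.0–99.96%) in Vsir-/- mice (98.7% and 98.5% before thinning). For *Prf1* it was 71.7% (67.9–75.4%) and 73.1% (60.9–83.2%), against 0–3.42% and 0–1.26% over the macrophage and neutrophil clusters. Of the NK markers, all 6 of *Ncr1*, *Klrb1c*, *Klre1*, *Klrd1*, *Eomes*, and *Klra8* were detected, and 594 of 594 WT and 67 of 67 Vsir-/- cells had at least 1 of them. A T cell transcript was found in 505 WT and 51 Vsir-/- cells as well, with *Cd3e* at 0 in the latter. The NK markers summed to 4305 CPM (WT) and 2955 CPM (Vsir-/-), and the summed level of 18 kidney tubule markers was 344 and 3297 CPM. The part of these differences in the ratios was not tested. With the mitochondrial UMIs and those of the 18 tubule markers taken out of the denominator, the *Gzma* ratio was −0.17. That step leaves all other tubule transcripts in the denominator and does not touch the NK markers, so it cannot show their part.

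EM-like CD8+ T cells had another pattern. Here *Gzma*, *Gzmb*, and *Prf1* were each at least 2-fold lower in the Vsir-/- library, whereas *Nkg7*, *Fasl*, *Tnfsf10*, *Gzmk*, and *Serpinb9* were not. *Gzma* had 10026 UMIs in 197 WT cells and 907 UMIs in 28 Vsir-/- cells, or 12179 CPM (11942–12419.7) and 5463 CPM (5113–5830.0), a log2 ratio of −1.16 (interval −1.26 to −1.06). *Gzmb* had 1354 UMIs, or 1645 CPM (1558–1735), and 84 UMIs, or 506 CPM (404–626), a log2 ratio of −1.69 (interval −2.04 to −1.38). *Prf1* had 345 UMIs, or 419 CPM (376–466), and 13 UMIs, or 78.3 CPM (41.7–134), a log2 ratio of −2.37 (interval −3.34 to −1.63). The Vsir-/- value of *Prf1* rests on 13 UMIs in 28 cells, and after thinning its log2 ratio was −1.40. *Nkg7*, by contrast, had 3871 and 2999 CPM, a log2 ratio of −0.37 (interval −0.51 to −0.23), and 97.9% and 100% of the thinned cells had a UMI of it. *Fasl* (141 and 145 CPM), *Serpinb9* (188 and 151 CPM), and *Tnfsf10* (49.8 and 54.2 CPM) had ratios whose intervals included 0.

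Of the 9 genes that passed in EM-like CD8+ T cells, 3 were lower, against 9.98% of all 5521 genes. One was higher, against 6.03% of all genes, namely *Gzmm* with 19 and 8 UMIs and a log2 ratio of 1.11 (interval −0.34 to 2.32). The 3 lower genes were also lower as shares of cells, which are counted from the same UMIs and so are no separate support. *Gzma* was found in 95.4% (91.4–97.9%) of WT and 64.3% (44.1–81.4%) of Vsir-/- cells, *Gzmb* in 63.9% (56.7–70.7%) and 39.3% (21.5–59.4%), and *Prf1* in 36.1% (29.3–43.3%) and 14.3% (4.03–32.7%). The intervals of *Gzma* did not overlap and those of the other 2 did, but they take cells as units and so do not compare the genotypes. Before thinning, these shares were 97.5% and 75%, 87.8% and 75%, and 69.0% and 28.6%, with median depths of 3886 and 5236 UMIs per cell. The median cell held 49 *Gzma* UMIs in WT mice (quartiles 21 and 69) and 14.5 in Vsir-/- mice (quartiles 0.750 and 38.8). In the Vsir-/- library 5 cells held 64.6% of the *Gzma* UMIs of the cluster, and in the WT library 8.24%.

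The make-up of the EM-like CD8+ cluster also differed between the libraries. The NK markers summed to 2677 CPM (WT) and 741 CPM (Vsir-/-), with all 6 detected in both, and 85.1% and 42.9% of thinned cells had 1 of them. The T cell markers (*Cd3d*, *Cd3e*, *Cd3g*, *Trac*, *Trbc1*, and *Trbc2*) summed to 5368 and 4734 CPM and were found in 197 of 197 and 28 of 28 cells. The tubule markers summed to 131 and 1729 CPM. *Cd4* without a CD8 transcript was found in 3 WT and 6 Vsir-/- cells, which held 259 and 194 *Gzma* UMIs. Neither coreceptor was found in 90 WT and 7 Vsir-/- cells. A CD8 transcript (*Cd8a* or *Cd8b1*) without *Cd4* was found in 102 WT and 15 Vsir-/- cells, and the genes were counted again in these, a choice made after the values were seen. Their *Gzma* level was 10319.9 and 6327 CPM, a log2 ratio of −0.70 (interval −0.84 to −0.58), which is no longer 2-fold. *Gzmb* in these cells had 1731 and 540.0 CPM, a log2 ratio of −1.67 (interval −2.14 to −1.25), and *Prf1* 329 and 129 CPM, a log2 ratio of −1.29 (interval −2.38 to −0.47). Both ratios were thus still at least 2-fold lower in this subset of 15 Vsir-/- cells. That of *Prf1* rested on 153 and 11 UMIs, and its interval included differences of less than 2-fold. The part of the NK and tubule markers in these ratios was not tested.

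**Figure D2:**
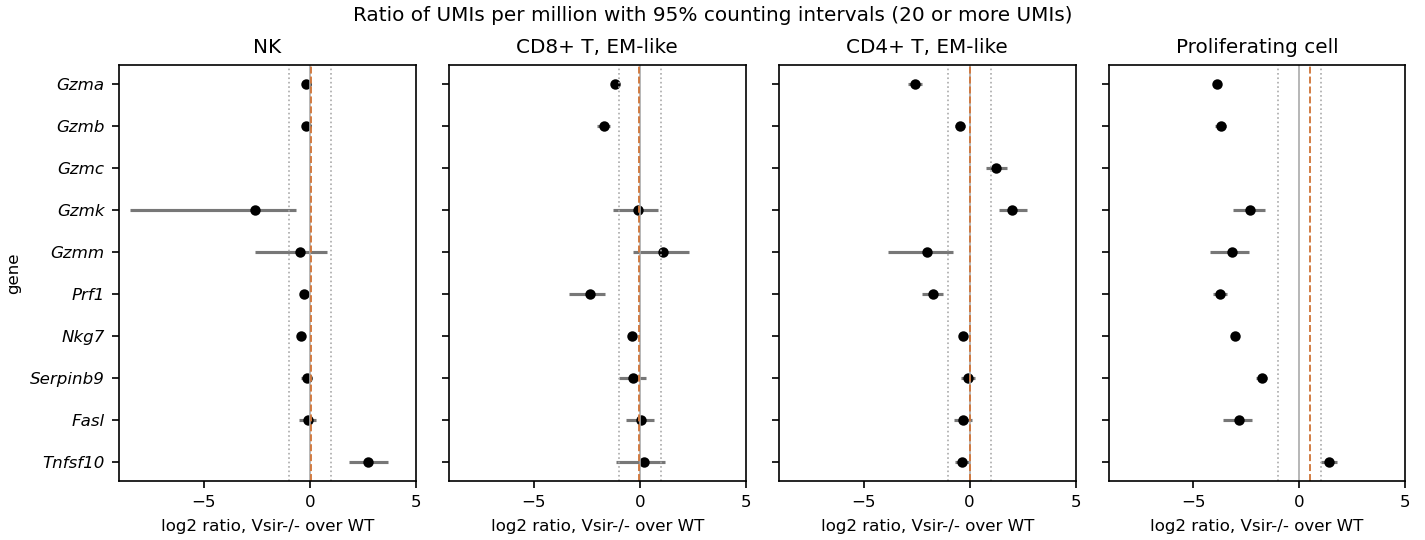
Log2 ratio of CPM, Vsir-/- over WT (horizontal axis), for each gene with at least 20 UMIs (vertical axis) in 4 clusters, with points for ratios, gray lines for 95% counting intervals, dotted lines at 2-fold, and a dashed line at the median of all genes. *Gzma*, *Gzmb*, and *Prf1* sit at −0.18, −0.17, and −0.28 in NK cells and at −1.16, −1.69, and −2.37 in EM-like CD8+ T cells.

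Which granzymes a single cell held was compared after thinning. In NK cells, 394 of 580 WT cells (67.9%) and 42 of 67 Vsir-/- cells (62.7%) held *Gzma* and *Gzmb* but no *Gzmk*, and 1.55% and 1.49% held none of the 3. The triple of *Gzma*, *Gzmb*, and *Prf1* was found in 54.0% and 47.8% of NK cells. These shares of NK cells lay close together in the 2 libraries. In EM-like CD8+ T cells, *Gzma* and *Gzmb* without *Gzmk* were found in 116 of 194 WT cells, or 59.8% (52.5–66.8%), and in 6 of 28 Vsir-/- cells, or 21.4% (8.30–41.0%). None of the 3 granzymes was found in 2.58% (0.842–5.91%) and 28.6% (13.2–48.7%) of these cells, with intervals that cover counting error only. The triple with *Prf1* was found in 40 of 194 WT cells (20.6%) and in 0 of 28 Vsir-/- cells, for which the exact upper bound of 12.3% limits detection at 1000 UMIs and not the share of cells that hold the triple. With all UMIs of each cell, it was detected in 60.4% and 17.9%.

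**Figure D3:**
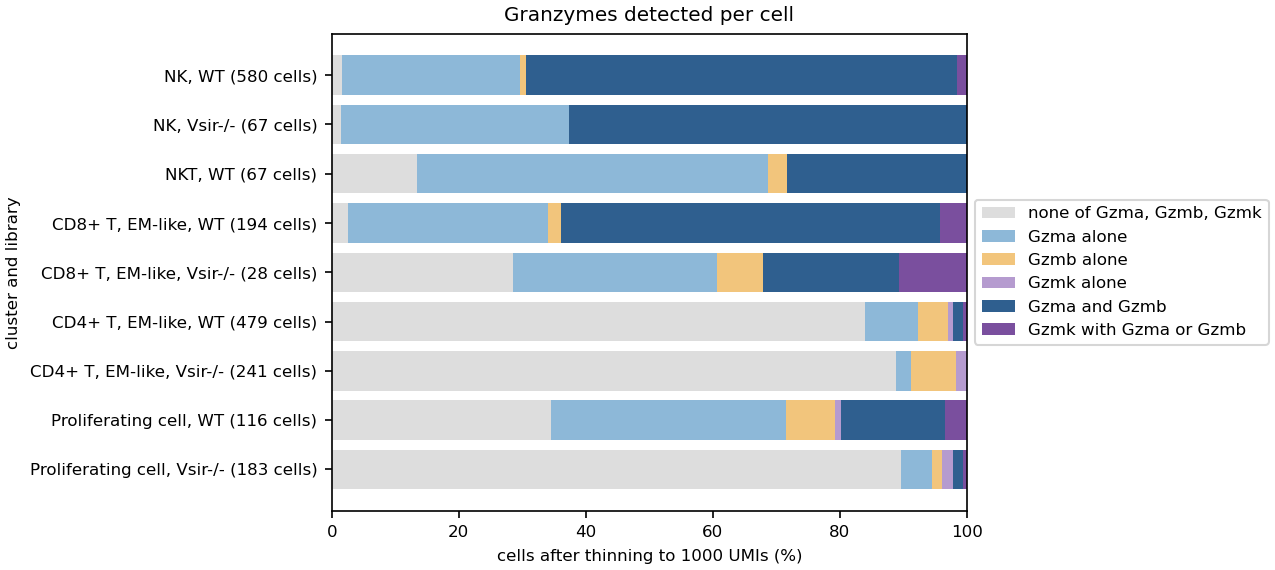
Share of thinned cells (horizontal axis, percent) with each combination of *Gzma*, *Gzmb*, and *Gzmk* in the clusters and libraries on the vertical axis, with the number of cells. The dark blue part, *Gzma* with *Gzmb*, takes 67.9% and 62.7% of WT and Vsir-/- NK cells and 59.8% and 21.4% of EM-like CD8+ T cells.

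*Gzma*, *Gzmb*, and *Prf1* were lower in EM-like CD4+ T cells than in NK and EM-like CD8+ T cells, and *Gzma* there rested on few cells. *Gzma* had 839 UMIs in 489 WT cells and 80 in 244 Vsir-/- cells, or 299 CPM (279–320.3) and 50.7 CPM (40.2–63.1), a log2 ratio of −2.55 (interval −2.91 to −2.23). The macrophage and neutrophil clusters had 36.0–411 CPM in WT and 3.86–87.2 CPM in Vsir-/- mice, and the tops of both ranges, those of M2-like R2 macrophages, rested on 15 of 456 and 2 of 168 cells with at least 10 *Gzma* UMIs. In the cells of these clusters with fewer than 10 *Gzma* UMIs the ranges were 31.0–62.5 CPM and 3.86–9.37 CPM. Each range lay below the value of all EM-like CD4+ T cells of the same library. Among EM-like CD4+ T cells, in turn, 15 WT cells with at least 10 UMIs held 656 of the 839 UMIs. Without such cells, a choice made after the values were seen, the cluster had 69.6 and 21.9 CPM, a log2 ratio of −1.65 (interval −2.24 to −1.14). The WT value then lay near the 62.5 CPM at the top of the WT range, and the Vsir-/- value above the 9.37 CPM at the top of the Vsir-/- range. The share of EM-like CD4+ T cells with *Gzma* was 10.2% and 2.49%, against 4.17–12.7% and 0–1.89% in the macrophage and neutrophil clusters. With the neutrophil rate of the same library subtracted, the log2 ratio was −0.43, but 4 of the 524 WT neutrophils held 510 of their 585 *Gzma* UMIs. With the rate of the other neutrophils subtracted it was −2.51. A single Vsir-/- cell held 46 of the 80 UMIs, and without the richest cell of each library the ratio was −3.56.

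*Gzmb* and *Nkg7* in EM-like CD4+ T cells stood above the background in both libraries. *Gzmb* had 159.8 CPM (145–175) and 117 CPM (100.4–135), against 14.9–45.1 CPM and 0–9.55 CPM, and was found in 6.89% and 7.05% of the cells. *Nkg7* had 1559 CPM (1513–1606) and 1258 CPM (1204–1315), against 72.0–139 CPM and 1.25–19.7 CPM. Their log2 ratios over the whole cluster were −0.45 and −0.31, each with an interval below 0, and that of *Nkg7* was above 0 in the cells with *Cd4* alone. *Prf1* had 89.2 CPM (78.5–101) and 26.6 CPM (19.2–36.0), a log2 ratio of −1.73 (interval −2.25 to −1.27), with 7.20–38.9 CPM and 0–8.95 CPM in the background clusters. Of the 10 genes, all of which passed, 2 were higher (*Gzmc* and *Gzmk*) and 3 lower (*Gzma*, *Gzmm*, and *Prf1*), against 10.4% and 5.41% of all 9751 genes. The NK markers summed to 1222 CPM (WT) and 363 CPM (Vsir-/-) in this cluster, with all 6 detected in both, and the tubule markers to 87.4 and 3215.5 CPM, and their part in these ratios was not tested.

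This cluster held cells with either coreceptor, and the genes differed between them. In the cells with *Cd4* alone (92 WT and 76 Vsir-/-), *Gzma* had 122 and 5 UMIs, or 205 and 9.60 CPM. One WT cell held 63 of the 122 UMIs. *Gzmb* in these cells had 75.4 and 61.4 CPM, with an interval of the ratio that included 0. In the cells with *Cd8a* or *Cd8b1* alone (93 WT and 40 Vsir-/-), *Gzma* had 465 and 214 CPM, *Gzmb* 284 and 286 CPM, and *Prf1* 104 and 72.4 CPM. Both genotypes thus had more *Gzmb* in the cells with a CD8 transcript than in those with *Cd4*. The *Prf1* ratio in the CD8 cells was −0.50 (interval −1.30 to 0.20), which is not 2-fold. The cells with neither coreceptor, 294 WT and 125 Vsir-/-, were the largest group, and in them *Prf1* had 167 and 15 UMIs with a log2 ratio of −2.50 (interval −3.41 to −1.78) and *Gzma* a log2 ratio of −3.00 (interval −3.98 to −2.24). *Nkg7* changed direction between the groups. Its log2 ratio was 0.82 (interval 0.56 to 1.09) in the cells with *Cd4* alone, from 197 and 304 UMIs, 0.04 (interval −0.10 to 0.18) in those with a CD8 transcript alone, and −0.41 (interval −0.52 to −0.31) in those with neither.

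*Gzmk*, *Gzmm*, and *Gzmc* were minor granzymes here. *Gzmk*, which marks memory-type CD8+ T cells more than NK cells, had 212 UMIs in the whole WT library and 109 in the Vsir-/- library. In EM-like CD8+ T cells it had 65.6 CPM (49.3–85.6) and 60.2 CPM (28.9–111), a log2 ratio of −0.07 (interval −1.26 to 0.86). With 10 Vsir-/- UMIs, this interval reaches to the ratio of *Gzma* there. In EM-like CD4+ T cells it was higher in Vsir-/- mice, with 29 UMIs, or 10.3 CPM (6.93–14.9), and 66 UMIs, or 41.8 CPM (32.4–53.2), a log2 ratio of 2.00 (interval 1.37 to 2.70). Most of it came from cells with *Cd8a* or *Cd8b1* and no *Cd4*, which held 24 of 29 WT and 47 of 66 Vsir-/- UMIs and had 36.2 and 162 CPM. The UMIs were spread over cells, as 8 was the highest number in any Vsir-/- cell of the cluster. After thinning, *Gzmk* had too few UMIs there for a ratio. Macrophages and neutrophils had 0–0.911 CPM in WT mice and 0 UMIs in Vsir-/- mice. In NK cells *Gzmk* had 67 WT UMIs and 1 Vsir-/- UMI, a log2 ratio of −2.60 (interval −8.50 to −0.65), and in non–EM-like CD8+ T cells it had 0 UMIs in 659 WT cells and 7 in 50 Vsir-/- cells, all in 1 cell.

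*Gzmm* was not concentrated in the effector clusters. Its WT level was 29.8 CPM in proliferating cells, 24.9 in non–EM-like CD8+, 23.1 in EM-like CD8+, 13.9 in EM-like CD4+ T cells, and 12.2 in NK cells, and the intervals of the first 3 overlapped. In Vsir-/- mice the CD8+ clusters had 38.4 and 48.2 CPM, from 17 and 8 UMIs, and both intervals of the ratio included 0. In EM-like CD4+ T cells it had 39 and 5 UMIs, a log2 ratio of −2.02 (interval −3.83 to −0.79). *Gzmc*, a granzyme of the cluster that also holds *Gzmb*, was found mostly in EM-like CD4+ T cells, with 65 of 106 WT and 88 of 93 Vsir-/- UMIs. One cell held 41 of the WT UMIs and another 74 of the Vsir-/- UMIs. The WT cell also had 4 UMIs of the NK receptor gene *Ncr1* and 0 of *Gzma*, and the Vsir-/- cell had 0 of *Gzma*, *Gzmb*, and *Prf1*. Without these cells, the log2 ratio of *Gzmc* was 0.08 in place of 1.26. The granzymes are a gene family, so shared reads were checked in the GENCODE vM21 transcripts. None of the 91-base stretches in the last 500 bases of the transcripts of the 10 genes occurred in another gene. *Gzmd*, *Gzme*, *Gzmf*, *Gzmg*, and *Gzmn* were not found by name among the genes of the deposited table, so they could not be analysed.

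The proliferating cluster had high levels of these genes in WT mice and low levels in Vsir-/- mice, but it held different cells in the 2 libraries. *Gzma* had 6331 CPM (6222–6442) in 118 WT cells and 431 CPM (412–451) in 189 Vsir-/- cells, *Gzmb* 419 and 31.9 CPM, *Prf1* 284 and 21.4 CPM, and *Nkg7* 1959 and 237 CPM. Of the 9 genes that passed, 8 were lower and 1, *Tnfsf10*, was higher, against 9% and 37.5% of all 12248 genes. The median log2 ratio of all genes in this cluster was 0.51. A T cell transcript was found in 114 of 118 WT cells and in 66 of 189 Vsir-/- cells. Among the cells with one, *Gzma* had 6390.2 and 1252 CPM (log2 ratio −2.35 (interval −2.42 to −2.28)), *Gzmb* 425 and 88.8 CPM, and *Prf1* 287 and 56.9 CPM. *Gzmk* in these cells had 26.8 and 15.9 CPM, with a ratio of −0.73 (interval −1.52 to −0.02). A T cell transcript was also found in 505 of 594 WT NK cells, so this filter does not remove NK cells. Over the whole proliferating cluster the NK markers summed to 1618 CPM (WT) and 98.5 CPM (Vsir-/-). At least 1 of them was found in 100 of 118 and 25 of 189 cells, and their part in these ratios was not tested. The 118 Vsir-/- cells without a T cell transcript or NK marker (*Eomes* aside) had 4 UMIs of *Gzma*, 0 of *Gzmb*, and 1 of *Prf1*. Their tubule markers summed to 8514 CPM.

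NKT cells were found in WT mice alone, with 7058 CPM of *Gzma*, 707 of *Gzmb*, 598 of *Prf1*, and 2346 of *Nkg7* in 94 cells, so they allow no comparison of the genotypes. Their B cell markers summed to 6163 CPM, against 1599.8 CPM of T cell and 2237 CPM of NK markers. The median NKT cell held 5 *Gzma* UMIs, with quartiles of 2 and 56.2, and the part of the mixture in these levels was not tested. In non–EM-like CD8+ T cells, *Nkg7* had 732 CPM (708–755) and 588 CPM (519–664) and *Prf1* 220 and 10 UMIs, with log2 ratios of −0.31 (interval −0.50 to −0.13) and −0.88 (interval −2.02 to −0.04). *Gzma* had 206 and 2 UMIs there, of which the WT level of 40.7 CPM lay within the background of its library. In γδ T cells, *Gzma*, *Gzmb*, and *Prf1* had at most 11 UMIs each in 46 WT and at most 2 in 28 Vsir-/- cells, too few to compare.

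Among the death ligands, *Fasl* was found in the effector clusters. In WT mice it had 141 CPM (116–169) in EM-like CD8+ T cells, 123 CPM (112–135) in NK cells, 65.0 CPM (43.9–92.8) in NKT cells, and 60.3 CPM (51.5–70.1) in EM-like CD4+ T cells, and of these neighbors only the first pair and the last pair overlapped. In Vsir-/- mice the levels were 145 CPM (EM-like CD8+), 114 CPM (NK), and 48.8 CPM (EM-like CD4+). The log2 ratios were 0.06 (interval −0.66 to 0.68), −0.10 (interval −0.53 to 0.29), and −0.30 (interval −0.71 to 0.09), and each interval included 0. *Fasl* was lower in Vsir-/- proliferating cells, with 84 and 25 UMIs and a log2 ratio of −2.87 (interval −3.60 to −2.23), or −1.27 among those with a T cell transcript, where the interval also lay below 0. The NK markers of that cluster also differed, and their part in these ratios was not tested. In the non–EM-like CD4+ cluster *Fasl* had 28 and 3 UMIs. Among the cells of that cluster with a T cell transcript, the log2 ratio was −1.16, with an interval that included 0 (−3.71 to 0.34). Over the whole library *Fasl* had 29.3 CPM (WT) and 10.3 CPM (Vsir-/-). NK cells made up 10.9% of WT and 3.63% of Vsir-/- cells, and the part of this in the library levels was not tested. Macrophages and neutrophils had 2.88–5.92 CPM in WT mice and 0 UMIs in Vsir-/- mice, so the signal of the lymphocytes stood well above them. Of the thinned EM-like CD8+ T cells, 14.4% (9.81–20.2%) and 17.9% (6.06–36.9%) had a *Fasl* UMI.

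*Tnfsf10* had another distribution. In WT mice its highest level was in EM-like CD4+ T cells, 83.5 CPM (73.1–94.9), with 49.8 CPM (35.7–67.6) for EM-like CD8+ T and 31.3 CPM (24.1–40.1) for proliferating cells. WT NK cells had 6.12 CPM (3.88–9.18), within the 3.63–7.03 CPM of macrophages and neutrophils. Within EM-like CD4+ T cells, those with neither coreceptor had 112 CPM in WT mice, above the 41.9 CPM of those with *Cd4* alone. In Vsir-/- mice the EM-like CD4+ level was 65.9 CPM (53.9–79.9), a log2 ratio of −0.34 (interval −0.69 to −0.00). In NK cells it had 23 UMIs in 594 WT cells and 21 UMIs in 67 Vsir-/- cells, a log2 ratio of 2.76 (interval 1.83 to 3.68). One Vsir-/- cell held 10 of the 21 UMIs, and without it the level was 22.1 CPM, within the 5.15–25.6 CPM of the Vsir-/- macrophage and neutrophil clusters. Of the 877 Vsir-/- *Tnfsf10* UMIs, 236 and 176 lay in proliferating and non–EM-like CD4+ cells without a T cell transcript or NK marker (*Eomes* aside). The 118 such proliferating cells had 83.0 CPM, and the 228 such cells among the non–EM-like CD4+ had 54.9 CPM. The tubule markers of the latter summed to 22339.6 CPM. *Tnfsf10* was also higher in the cells with a T cell transcript. In those of the non–EM-like CD4+ cluster it had 24 and 63 UMIs, a log2 ratio of 3.24 (interval 2.56 to 4.01). In those of the proliferating cluster it had 63 and 108 UMIs, a log2 ratio of 1.23 (interval 0.77 to 1.71). Over the whole non–EM-like CD4+ cluster the tubule markers summed to 98.7 CPM (WT) and 17776 CPM (Vsir-/-). Over the whole proliferating cluster they summed to 134 and 6982 CPM. The part of tubule transcripts in these ratios was not tested, so the ratios are not shown for T cells. Over the whole library, *Tnfsf10* had 15.9 CPM in WT and 47.1 CPM in Vsir-/- mice, and proliferating cells held 41.4% of the Vsir-/- UMIs.

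*Serpinb9* followed the granule genes in WT mice, with 379 CPM (360.0–399.6) in NK, 188 CPM (159.8–220.4) in EM-like CD8+ T, 173 CPM (138–216) in NKT cells, 171 CPM (153–189.6) in proliferating cells, and 76.7 CPM (66.8–87.7) in EM-like CD4+ T cells. The levels of EM-like CD8+ T, NKT, and proliferating cells did not differ beyond their intervals. In Vsir-/- mice the NK and EM-like CD4+ levels were 339 and 72.9 CPM. *Serpinb9* of EM-like CD8+ T cells had 155 and 25 UMIs with a log2 ratio of −0.30 (interval −0.99 to 0.29), so its interval lay above that of *Gzmb*, the protease it inhibits. Per 100 *Gzma* UMIs, EM-like CD8+ T cells had 1.55 UMIs of *Serpinb9* in WT and 2.76 in Vsir-/- mice, and 3.44 and 1.43 UMIs of *Prf1*. NK cells had 2.43 and 2.47 of *Serpinb9* and 11.4 and 10.6 of *Prf1*. For these 2 genes the proportions were thus nearly the same in NK cells of both libraries. In EM-like CD8+ T cells they differed, on 25 *Serpinb9* and 13 *Prf1* UMIs in Vsir-/- mice. *Nkg7* per 100 *Gzma* UMIs differed in both, with 28.0 and 23.5 in NK cells and 31.8 and 54.9 in EM-like CD8+ T cells. In the non–EM-like CD4+ cluster *Serpinb9* had 4.49 and 74.8 CPM. Of its 344 Vsir-/- UMIs, 199 came from the 228 cells without a T cell transcript or NK marker (*Eomes* aside). Cells of this cluster with a T cell transcript, 895 WT and 116 Vsir-/-, had 20 and 136 *Serpinb9* UMIs. Their log2 ratio was 4.61 (interval 3.95 to 5.39). Over the whole cluster, 5 Vsir-/- cells held 184 of the 344 UMIs. The T cell markers of the whole cluster summed to 5498 CPM (WT) and 399 CPM (Vsir-/-), and the tubule markers to 98.7 and 17776 CPM. Their part in this ratio was not tested, so it holds for cells with a T cell transcript and is not shown for T cells.

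**Figure D4:**
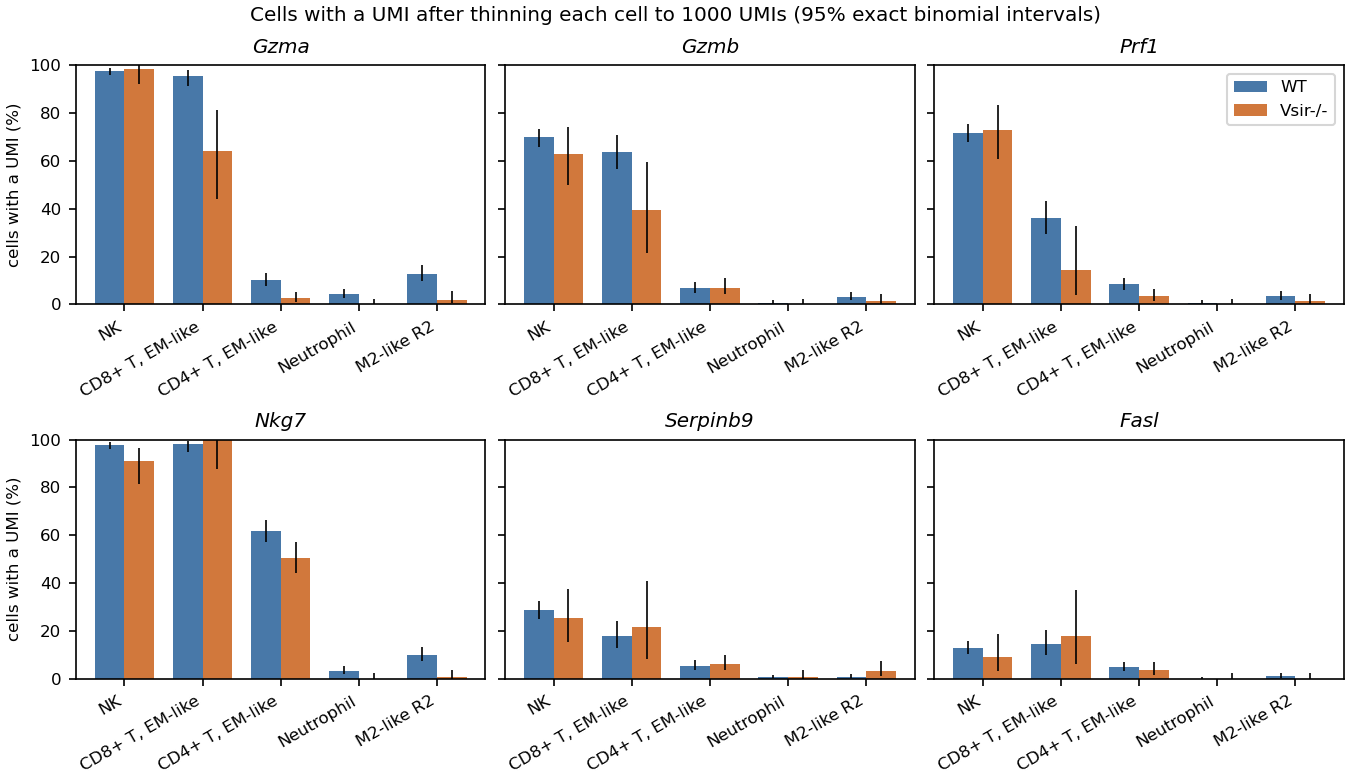
Share of thinned cells with a UMI (vertical axis, percent) for 6 genes in NK, EM-like CD8+ T, and EM-like CD4+ T cells and in 2 background clusters, for WT (blue) and Vsir-/- (orange) mice, with bars for shares and lines for exact 95% binomial intervals. The *Gzma* share of EM-like CD8+ T cells is 95.4% in WT and 64.3% in Vsir-/- mice, and in WT mice that of EM-like CD4+ T cells is 10.2%, below the 12.7% of M2-like R2 macrophages.

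Granule transcripts were also counted in cells that should not make them. In the WT library, 2693 *Gzma* UMIs were found in 1284 macrophages and neutrophils (304 CPM), and in the Vsir-/- library 169 UMIs in 694 such cells (35.0 CPM). These UMIs were not spread evenly. In WT mice 22 cells with at least 10 *Gzma* UMIs held 2293 of them, and in Vsir-/- mice 2 cells held 135. The 22 WT cells had a median of 16041.5 UMIs, against 4658.5 in the other 1262 cells. Clusters differ in depth, and 15 of the 22 were M2-like R2 macrophages, among which the medians were 15583 and 9522 UMIs. All 22 carried *Ncr1*, *Klrb1c*, *Klre1*, *Klrd1*, or *Klra8*, as did 150 of the other 1262. Per 100 *Gzma* UMIs the 22 cells had 9.99 of *Gzmb*, 9.59 of *Prf1*, and 26.9 of *Nkg7*, and WT NK cells had 10.4, 11.4, and 28.0. Without these cells, a choice made after the values were seen, the background of *Gzma* was 47.2 (WT) and 7.08 CPM (Vsir-/-). The background was thus higher in the WT library both with and without them, and in B cells it was 52.3 and 9.53 CPM. The part of this difference in the ratios of the weakly expressing clusters was not tested, while in NK cells the *Gzma* level was more than 10 times that of each of these clusters in both libraries.

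**Figure D5:**
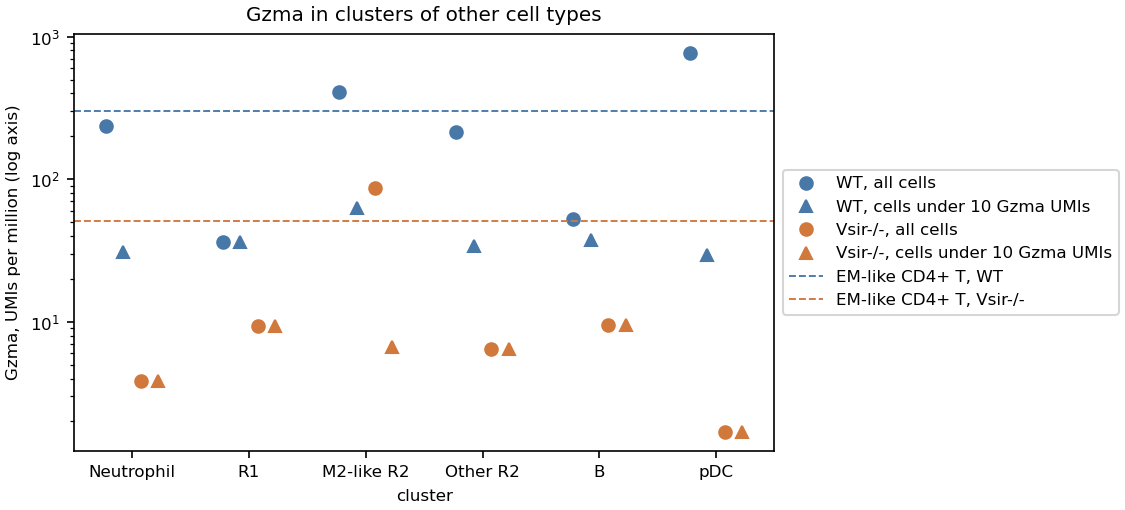
*Gzma* level in CPM (vertical axis, log scale) in 6 clusters of other cells (horizontal axis) for WT (blue) and Vsir-/- (orange) mice, with circles for all cells, triangles for cells with fewer than 10 *Gzma* UMIs, and dashed lines for EM-like CD4+ T cells. The WT line at 299 CPM lies below the circle of M2-like R2 macrophages at 411 CPM and above every WT triangle.

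Across the 29 pairs of a cluster and a library, the level of each gene was compared with those of 11262 genes by Pearson's r of log2(CPM + 10). The points share libraries and depth, and r is a description. *Gzma* was most like *Klre1* (0.933), *Prf1* (0.925), and *Gzmb* (0.908), and *Prf1* most like the NK receptor genes *Klra3* (0.949), *Klre1* (0.940), and *Klra9* (0.939). *Gzmb* was closest to *Tbx21* (0.955), the gene of the transcription factor T-bet, and so was *Fasl* (0.955). *Nkg7* was closest to *Ctsw* (0.950), the gene of cathepsin W, and *Gzmk* to *Ifng* (0.826), the gene of interferon-γ. *Gzmm* was closest to *Cd8a* (0.801), the CD8 coreceptor gene, *Gzmc* to the chemokine gene *Ccl1* (0.877), and *Serpinb9* to another serpin, *Serpinb6b* (0.941). For *Gzmc*, 1 cell per library held 41 of 65 WT and 74 of 88 Vsir-/- UMIs of EM-like CD4+ T cells. Without these cells its level there was 8.58 and 8.92 CPM, below the 10 CPM added, and r was not computed without them. *Tnfsf10* was closest to *Bspry* (0.813), *Fam92a* (0.811), and *Scly* (0.810).

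The wider machinery around these genes was described with 54 genes of granule loading and release, serpins, death receptors and their signaling, other TNF family ligands, and regulators of cytotoxic genes. In NK cells, 1 of 51 genes that passed was at least 2-fold higher and 2 were lower. In EM-like CD8+ T cells 3 were higher and 6 lower of 46, and in their CD4+ counterparts 1 and 2 of 53. Over all genes, 9.86% and 7.01% were higher and lower in NK cells, 6.03% and 9.98% in the CD8+ cluster, and 10.4% and 5.41% in the CD4+ cluster. The median log2 ratios were −0.12, −0.18, and −0.07, against 0.07, −0.02, and 0.00 over all genes. *Tcf7*, the gene of the memory T cell factor TCF-1, had the lowest ratio of these genes in NK cells (278 and 7 UMIs, log2 ratio −2.32) and among EM-like CD4+ T cells (555 and 116 UMIs, log2 ratio −1.42). *Zeb2*, a transcription factor of mature NK cells, was among the lowest in NK cells (2166 and 148 UMIs, log2 ratio −0.98), as was the serpin gene *Serpinb9b* (448 and 27 UMIs, log2 ratio −1.14). *Ctsc*, the gene of cathepsin C, which activates granzymes by trimming them, was lower in EM-like CD4+ T cells (199 and 50 UMIs, log2 ratio −1.15).

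The lysosomal membrane gene *Lamp2* was among the highest of the 54 in NK cells (177 and 53 UMIs, log2 ratio 1.16) and EM-like CD4+ T cells (131 and 141 UMIs, log2 ratio 0.94). In the latter the lymphotoxin gene *Lta* (33 and 45 UMIs, log2 ratio 1.27) and the transcription factor gene *Nfil3* (49 and 53 UMIs, log2 ratio 0.94) stood beside it, and *Tnfsf12* was low (49 and 14 UMIs, log2 ratio −0.94). In EM-like CD8+ T cells the serpin gene *Serpinb6a* (12 and 10 UMIs, log2 ratio 2.06), *Tnfsf14* (15 and 6 UMIs, log2 ratio 1.06), and the lymphotoxin gene *Ltb* (79 and 32 UMIs, log2 ratio 1.02) were highest, and the interval of *Tnfsf14* included 0. The lowest there were *Tnfsf12* (21 and 0 UMIs), the syntaxin gene *Stx7* (27 and 1 UMIs, log2 ratio −1.89), and the death receptor gene *Fas* (38 and 2 UMIs, log2 ratio −1.64), all on very few Vsir-/- UMIs. *Fas* (53 and 13 UMIs, log2 ratio 0.90) and *Tnf* (23 and 5 UMIs, log2 ratio 0.80) were high in NK cells, with intervals that included 0.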

How the data were processed

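Single cells of nephritic kidney were profiled in 1 WT and 1 Vsir-/- library with 10x 3′ chemistry. Per the labels, the processing tools were Cell Ranger 3.1.0, R 4.0.3, and Seurat 3.2.3, with the build mm9. The authors filtered genes and cells, merged the libraries, and gave each cell a cluster name. The deposited values are counts of UMIs per gene and cell, without normalization. The deposited percent of mitochondrial UMIs, at most 10% in every cell, served only for an alternative limit. No source used here gives the annotation or says whether doublets were removed, and none were called.

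Counts were summed by cluster and library. CPM are per 1000000 UMIs of the same cells. Poisson, Clopper-Pearson, and conditional ratio intervals are exact, at the 95% level. Ratios add 0.5 UMIs, need at least 20 UMIs, and 20 cells per library for a whole cluster but not for its subgroups (15 Vsir-/- cells at the fewest printed), and their script was tested on simulated data. Cells were thinned without replacement with a fixed seed. With 32799550 and 18601189 UMIs, counting precision is limited mainly by small clusters, such as 28 Vsir-/- EM-like CD8+ T cells. The spread between mice or libraries cannot be estimated from 1 library per genotype.

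The 10 genes and all gene lists were chosen with earlier results of these data known. Besides the 10, the rule names the 3 genes with the highest and the 3 with the lowest ratio among the related lists in each of NK, EM-like CD4+ T, and EM-like CD8+ T cells, and the 3 most like genes of each. Marker genes are named where they check a cell type. Likeness added 10 CPM and used genes with at least 200 UMIs. Alternatives changed the cells, depth, denominator, background, minimum, and centring. Promoters and transcripts came from RefSeq (GRCm38.p6) and GENCODE vM21. Python 3.11.15, numpy 2.4.6, scipy 1.17.1, pandas 2.3.3, and matplotlib 3.10.9 were used.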

Additional observations from a re-analysis of the deposited data

Results flagged for a closer look

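*Gzmk* had opposite directions in 2 cell types, with a log2 ratio of 2.00 among EM-like CD4+ T cells and −2.60 among NK cells, each with a counting interval on its own side of 0, and the difference was not tested. *Tnfsf10* had a log2 ratio of 2.76 among NK cells and −0.34 among EM-like CD4+ T cells, and this difference was not tested either. The NK ratio of *Gzmk* rested on 67 WT UMIs and 1 Vsir-/- UMI. That of *Tnfsf10* rested on 23 and 21 UMIs, and 1 Vsir-/- cell held 10 of the 21. Neither was counted after thinning or with a minimum of 100 UMIs. Cells with a CD8 transcript and no *Cd4* held 47 of the 66 Vsir-/- *Gzmk* UMIs of the EM-like CD4+ cluster. Outside the clusters compared, *Gzmb* stood at 158 CPM (100.2–237) in 25 WT basophils, from 23 UMIs of which 1 cell held 10. There *Gzma* had 4 UMIs, *Prf1* 1, and *Nkg7* 30. Of the 2 Vsir-/- basophils, 1 cell held all 12 UMIs of *Gzmb*, and *Gzma* and *Prf1* had 0.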

How the results depend on the processing

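No paired analysis was possible because each genotype had 1 library. The number of genes at least 2-fold higher in Vsir-/- NK cells was 1, and 0 after thinning to 1000 UMIs or with a minimum of 100 UMIs, and the number lower was 1, and again 0 under both. In EM-like CD4+ T cells, 2 were higher, 1 without the richest cell of each gene, 0 after thinning, and 1 with a minimum of 100 UMIs. By coreceptor, a split chosen after the data were seen, 1 was higher in cells with *Cd8a* or *Cd8b1* and no *Cd4* (*Gzmk*) and 1 in cells with *Cd4* alone (*Serpinb9*). In the latter 1 in place of 3 was lower (*Gzma*), but only 6 genes passed the minimum there, and *Gzmm* and *Prf1* did not. In the former *Gzma* (log2 ratio −1.11) and *Gzmm* (−1.06, with an interval that included 0) were lower. In EM-like CD8+ T cells, 1 was higher (*Gzmm*), and 0 without the richest cell, after thinning, with a minimum of 100 UMIs, or in cells with *Cd8a* or *Cd8b1* and no *Cd4*. The 3 lower genes there, *Gzma*, *Gzmb*, and *Prf1*, were the same 3 under each of the 11 settings other than the coreceptor split, and *Gzma* was no longer among them in cells with *Cd8a* or *Cd8b1* and no *Cd4*. Under thinning, the higher minimum, and the coreceptor split, fewer genes were counted. Both changes of the minimum and the lineage filter could not alter the 3 lower genes of EM-like CD8+ T cells. Each had more than 100 UMIs, and the filter removed no cell there. Of the 28 ratios of single genes in these clusters, those that left their counting interval numbered 2 with at most 5% mitochondrial UMIs, 5 of 27 without the richest cell, 10 of 19 after thinning, 4 with the neutrophil rate subtracted, 2 without the deepest 5% of cells, and 1 after centring, and 0 with a lineage transcript, another denominator, no minimum, or (of 20) a minimum of 100 UMIs. By coreceptor they numbered 10 of 17 and 4 of 6. A changed minimum alters which genes are counted and not their ratios, so its values of 0 were fixed in advance. The lineage filter removed no NK or EM-like CD8+ T cell, so it could not move a ratio there. With the neutrophil rate taken without its cells of 10 or more *Gzma* UMIs, chosen after the data were seen, 1 of 28 left its interval and every count stood as before, while the *Gzma* ratio of EM-like CD4+ T cells was −2.51 in place of −0.43. No ratio of 2-fold or more changed sign. The *Gzma* ratio of the background was −3.12, −2.32 in B cells, and −2.72 without cells of 10 or more *Gzma* UMIs. Small Vsir-/- clusters limit the depth.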

Other observations

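WT plasmacytoid dendritic cells had 771 CPM of *Gzma*, of which 2 of 21 cells held 197 of 204 UMIs, and the 86 Vsir-/- cells had 2 UMIs.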
